A study of Rattus norvegicus with 20 samples.

Results

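Liver RNA of rats held at 30% food restriction was compared between 1 month and 1 week of the diet, using the 4 arrays of these pools among 20 arrays in all. The arrays were chosen by their titles, so no measured value entered the choice, and all 15866 probe sets that were not controls were considered. The rats were male Wistar, an outbred strain, and the labels name no engineered allele. Per the study's design text, restriction began at 6 weeks of age and livers were collected after a 16 h fast, and the control, 5, 10 and 20% pools used here for reference shared the sex, the strain and the fast. As labelled, the arrays of the short duration carry an age of 6 weeks and those of the long duration 9 weeks, and it is not stated to which moment of the experiment these ages refer. RNA of 5 rats was pooled for each diet and duration, and each pool was hybridised to 2 Affymetrix rat arrays. Each side of the comparison was therefore 1 pool measured on 2 arrays, and spread between rats was not measured. Age, time on the diet and any handling shared by the pools of a duration changed together, so they cannot be told apart.

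Food restriction lowers the supply of glucose and amino acids to the liver, which answers by reducing lipid synthesis and using fat and amino acids as fuel. Hepatocytes also release hepcidin, the hormone that closes the iron exporter ferroportin, and its gene Hamp answers to iron through bone morphogenetic protein signals, to inflammation and to nutrient state. Liver genes also follow a daily clock in which Bmal1 and Clock activate, and the Per, Cry and Nr1d proteins repress, and meal times can shift this clock.

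The promoters of Hamp and Bmal1 are shown because these genes had large differences and carry well described response elements near the start of transcription. Both are RefSeq sequences of the rat assembly GRCr8, written 5′ to 3′ on the gene's strand, from 250 bases before to 50 bases after the start. The Hamp promoter lies at chr1:95300222-95300521 on the minus strand, with the letters GGCGCC of a bone morphogenetic protein response element in capitals.
Hamp: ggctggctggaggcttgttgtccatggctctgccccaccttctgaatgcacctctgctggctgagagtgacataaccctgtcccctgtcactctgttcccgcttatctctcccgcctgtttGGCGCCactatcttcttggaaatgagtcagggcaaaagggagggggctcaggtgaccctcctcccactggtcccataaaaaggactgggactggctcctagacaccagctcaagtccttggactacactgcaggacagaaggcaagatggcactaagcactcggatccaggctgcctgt
The Bmal1 promoter lies at chr1:176766078-176766377 on the plus strand, with the letters TAGGTCA, the ROR element to which Nr1d1 and ROR proteins can bind, in capitals.
Bmal1: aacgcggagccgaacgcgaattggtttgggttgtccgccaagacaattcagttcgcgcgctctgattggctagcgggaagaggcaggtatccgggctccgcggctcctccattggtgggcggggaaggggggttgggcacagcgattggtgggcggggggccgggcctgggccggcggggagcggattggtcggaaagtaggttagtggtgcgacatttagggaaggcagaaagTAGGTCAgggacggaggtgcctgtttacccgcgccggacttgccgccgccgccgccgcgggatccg
The capitals mark 1 match in each, starting 129 bases before the Hamp start and 16 bases before the Bmal1 start, on the strand shown. Both motifs were searched on both strands and do not overlap each other in letters. Of 33469 promoters of this length, 11.0% held GGCGCC and 2.63% held TAGGTCA, so the matches describe the sequence only.

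The arrays held signals on scales that differed. The 2 arrays of the 1 month pool had 2% trimmed means of 38.8 and 99.6 units, a 2.57-fold difference and the lowest and highest of the 20 arrays, and all arrays were therefore quantile normalized. After that the 2 arrays correlated at 0.955 within the 1 month pool and 0.948 within the 1 week pool, against 0.934 to 0.951 between the pools. The GAPDH 3′ to 5′ signal ratio, a measure of RNA integrity, was 1.29 in the 1 month pool and 1.46 at 1 week. By array, it was 1.44 and 1.17 at 1 month and 1.44 and 1.47 at 1 week. Arrays of a pool carry the same RNA, so the lower 1 month value rests on 1 array. The actin ratio was 2.28 in the 1 month pool and 2.23 at 1 week. With the GAPDH or the actin ratio as a covariate, 0 probe sets passed limma, and 325 and 445 had an unadjusted p under 0.05. Without a covariate, 0 passed limma as well and 607 had an unadjusted p under 0.05. A covariate also takes up residual degrees of freedom, and the part of RNA integrity in the differences was not tested. The deposited signals carry no read counts, and having 1 pool on each side limits the precision.

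Among the 9520 probe sets tested (the upper 60% by mean signal), 171 had a signal at least 2-fold higher at 1 month and did not overlap between the arrays of the pools, and 127 were lower by the same rule of size. These are 1.80% and 1.33% of those tested. The same rule gave 1.71% higher and 1.81% lower between the control pools of the 2 durations, 2.34% and 1.52% at 5%, 0.987% and 1.38% at 10%, and 1.23% and 1.12% at 20%. The number of calls at 30% thus lay within the range of the other diets (224 to 368 calls, against 298). Most calls were of dim probe sets: the lower pool was under 11.7 units, the lowest mean signal among the probe sets tested, for 110 of the higher and 73 of the lower calls, and raising low values to that level left 131 calls. Leaving out an array gave 411 calls without the first 1 month array, 630 without the second, 580 without the first 1 week array and 523 without the second. Of 49 called genes named below, 19 had a log2 difference under 1 in size when some array was left out (Ccnb1, Cth, Cybrd1, Cyp2c12, Ddit4, Igfbp2, Irs2, Klrg1, Me1, Mx2, Nr1d2, Pdgfrb, Plk1, Pnrc1, Ppara, Psat1, Ptgs2os, RT1-A3 and Uqcc3). Beside the counts for gene lists below, 1.66% of all 7056 genes were called higher and 1.30% lower. The medians of 17 of the 36 lists changed sign when some array was left out, so medians near 0 have no settled direction. Folds of dim genes are given below as lower bounds, written as at least, with values under 11.7 raised to it. These bounds concern low values and the means of the pools only, so a single array can give a smaller fold.

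No test between 2 single pools is possible, so limma took its error from the spread of the 1 month minus 1 week difference over the 4 other diets. By that test 0% of probe sets passed (adjusted p under 0.05), the lowest adjusted p was 0.251, and 607 had an unadjusted p under 0.05 against 476 given by chance. The departure of the 30% difference from its mean over the other diets was tested as well, where 0% passed, the lowest adjusted p was 0.641 and 499 had an unadjusted p under 0.05. No gene below therefore passed a test, and each value describes these pools. SE values are those of limma and stand for the pool spread over the other diets. That spread holds pool error and any real change of the difference with diet, which cannot be told apart. Across probe sets, the differences at 30% correlated at 0.24 with those at 20%, 0.13 with control, 0.02 with 10% and -0.09 with 5%, which is a description over probe sets that share arrays and scaling.

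**Figure D1:**
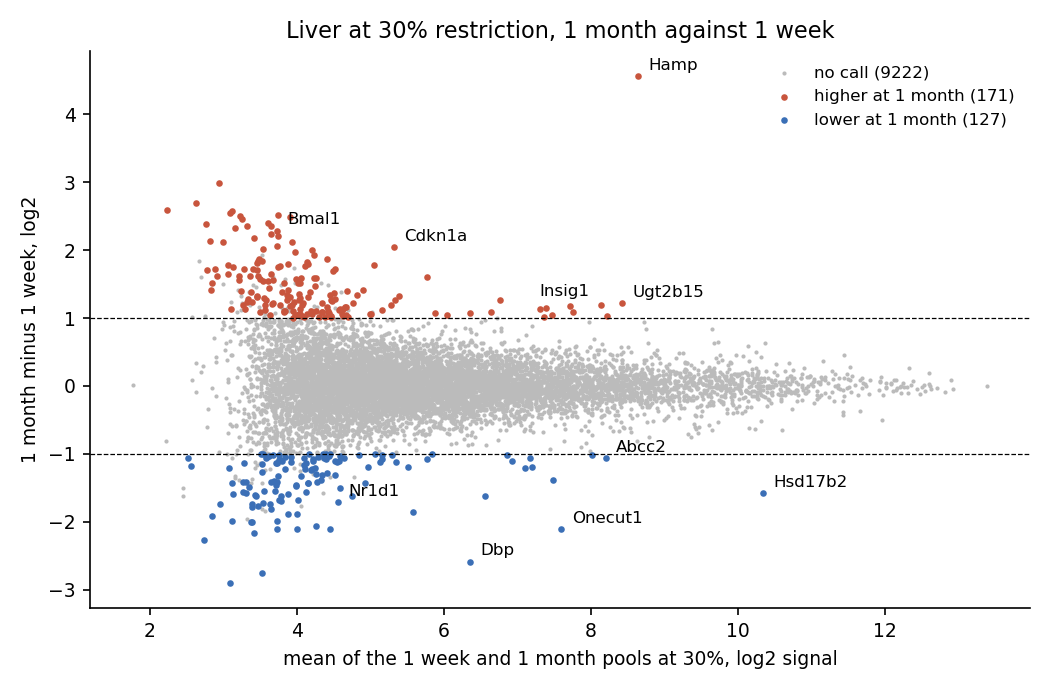
Difference in log2 signal between the 1 month and 1 week pools at 30% restriction (y axis) against the mean log2 signal of the 2 pools (x axis) for 9520 probe sets. Coloured points are the 171 higher and 127 lower probe sets by the rule of size, and most lie at low signal. Hamp stands alone at 4.56, while Dbp, Onecut1 and Hsd17b2 are the brighter genes at the lower edge.

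Hamp had the largest difference of the 9520 probe sets tested. The 2 arrays of the 1 week pool read 82.2 and 81.5 units and those of the 1 month pool 1921 and 1954, so the arrays of a pool were close and the pools far apart. The difference was 4.56 ± 0.591 on the log2 scale (SE from limma, 1 pool each side), 23.7-fold, with an adjusted p of 0.251. At 1 week, the Hamp pools read 1203 units in control, 1060 at 5%, 329 at 10%, 366 at 20% and 81.9 at 30%. The low value therefore belonged to the short duration and the strongest diet. After 1 month the 5 pools read 2162, 1289, 1568, 1798 and 1937 in the same order, and the 30% pool was 0.16 below control on the log2 scale, against 3.88 below at 1 week. The difference between durations was 0.85 in control, 0.28 at 5%, 2.25 at 10% and 2.29 at 20%, and the 30% value departed from their mean by 3.15 ± 0.661 (limma adjusted p = 0.641). Leaving out any of the 4 arrays gave 4.55 to 4.58.

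The other genes of iron and haem handling did not share the size of that difference. Of 16 measured genes, 8 had a difference above 0 and 8 below, with a median of 0.01 beside 0.004 for all 7056 genes, and Hamp was the only call by the rule of size. Id1, a target of bone morphogenetic protein signals, read 22.5 units at 1 week and 34.9 at 1 month, and Id3, another such target, 71.8 and 98.8. Smad6, an inhibitor of the same pathway, had a difference of 0.75 with overlapping arrays, and Smad7 of 0.02. Bmp6, the ligand that signals liver iron, differed by -0.26, and the transferrin receptor gene Tfrc by -0.36. Slc40a1, which encodes ferroportin, read 275 and 281 units, a difference of 0.03. Alas1, the first enzyme of haem synthesis, was lower at 1 month. Its arrays read 919 and 792 units at 1 week and 499 and 515 at 1 month, a difference of -0.75 ± 0.232 (limma adjusted p = 0.594), whereas the differences in the other diets ran from 0.09 to 0.85. Its departure from them was -1.34 ± 0.26 (limma adjusted p = 0.641). Stat3, which carries the interleukin signal to Hamp, differed by -0.35, and 26 acute phase and complement genes had a median of 0.03 and no call.

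Clock genes held 4 calls among 13 measured members. Of these, 1 was higher and 3 were lower by the rule of size, beside 1.66% and 1.30% of all 7056 genes, and 10 had a difference below 0, with a median of -0.28. The medians of the list in the other diets were -0.18 in control, 0.65 at 5%, -0.001 at 10% and -0.32 at 20%, so the 20% diet had a lower one. Dbp, a transcription factor gene driven directly by the clock, read 194 and 209 units on the 1 week arrays and 25.8 and 43.5 on the 1 month arrays. That is 6.02-fold lower, a difference of -2.59 ± 0.457 (limma adjusted p = 0.275). Its pools read 4.17, 141, 296, 236 and 202 units from control to 30% at 1 week and 7.12, 278, 241, 172 and 33.5 at 1 month, so restricted pools were above control at both durations and the 1 month pool at 30% was the lowest of the restricted ones. The departure from the other diets, whose differences ran from -0.45 to 0.98, was -2.84 ± 0.511 (limma adjusted p = 0.641).

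Nr1d1, which represses Bmal1, read 44.0 and 41.7 units at 1 week and 11.3 and 15.2 at 1 month. The difference of -1.71 ± 0.328 (limma adjusted p = 0.305) was larger in size than in the other diets, in which it was also negative (-0.27 to -1.23). Nr1d2, its close relative, read 181 and 177 units against 70.5 and 97.0, a difference of -1.11, and its 2 other probe sets differed by -1.42 and -0.86. Bmal1 itself was dim, with 11.6 and 3.12 units at 1 week and 29.3 on both arrays at 1 month. It was at least 2.52-fold higher (log2 difference 2.29 ± 0.963, limma adjusted p = 0.765), and the value ran from 1.34 to 3.23 when arrays were left out in turn. The control pools of Bmal1 read 47.2 and 42.2 units, above every restricted pool. The repressor gene Per1 had a difference of -0.96 and Per2 of -0.28, while Per2 was higher at 1 month in each other diet (0.20 to 1.52). Hlf, a relative of Dbp, differed by -0.70, and Nfil3, whose protein binds the same sites as Dbp and represses, by 0.81. The activator gene Clock differed by 0.18. Leaving out arrays moved the median of the list between -0.34 and -0.13. The labels used here give no time of day at which livers were taken, and its part in these differences was not tested.

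**Figure D2:**
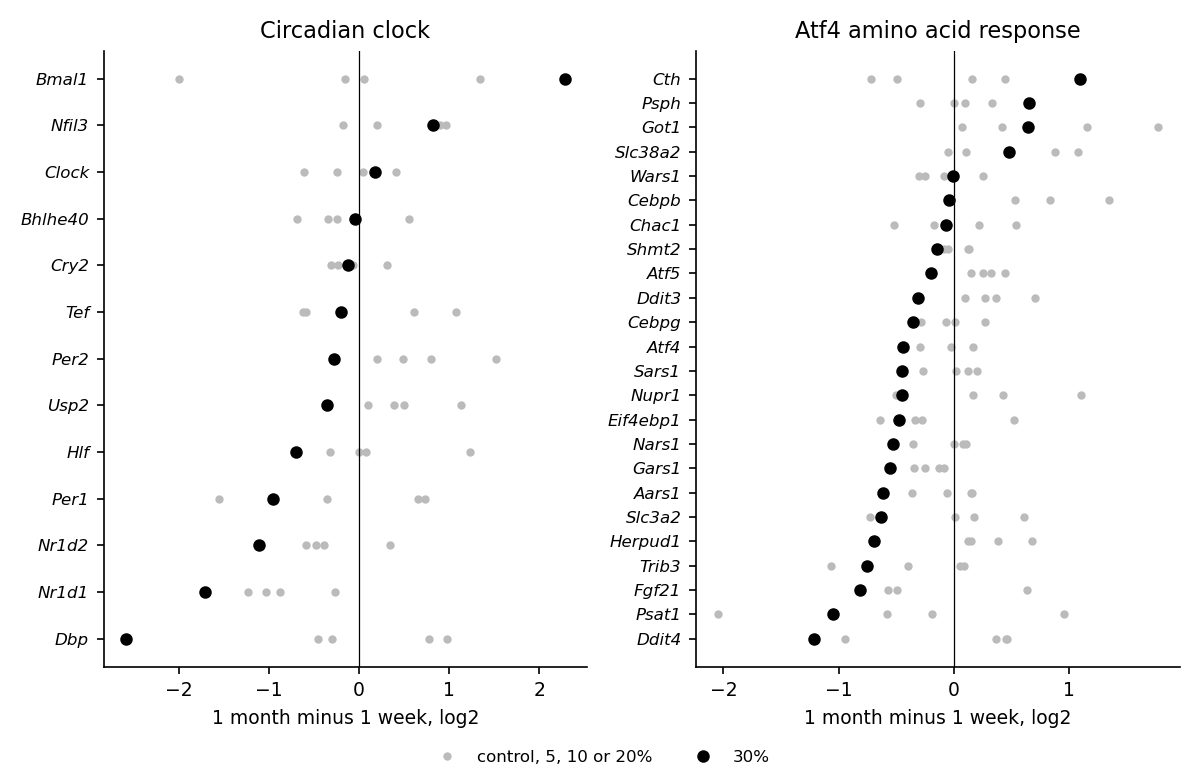
Difference in log2 signal between 1 month and 1 week (x axis) for each measured gene of the clock list (left, 13 genes) and of the Atf4 amino acid response list (right, 24 genes). Black points are the 30% diet and grey points control, 5, 10 and 20%. Dbp, Nr1d1 and Bmal1 at 30% lie outside their 4 grey points, and most black points of the right panel lie left of 0. Of calls by size at 30%, 146 of 171 higher and 101 of 127 lower lay outside the range of the other diets. Lying outside the grey points therefore does not set Dbp, Nr1d1 and Bmal1 apart from other calls.

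Among brighter genes, 9 probe sets were higher and 5 lower by the rule of size out of 2423 with both pools at 100 units or more, standing for 11 named genes. Onecut1, a transcription factor gene of hepatocytes and bile duct cells, lay just outside this set because the 1 month pool read 93.6 units. Its arrays read 391 and 415 units at 1 week and 105 and 83.3 at 1 month, 4.30-fold lower (log2 difference -2.10 ± 0.315, limma adjusted p = 0.275), and a second probe set differed by -1.86. Its pools in the other diets ran from 276 to 528 units at 1 week and from 196 to 446 at 1 month, so the 1 month pool at 30% was the lowest of the 10 pools. Onecut1 was 1 of 4 bile duct markers measured. Of the others, Epcam, an adhesion protein gene, read 37.04 units at 1 week and 24.7 at 1 month, the water channel gene Aqp1 24.4 and 21.4, and the mucin gene Muc1 13.9 and 18.8. Krt7, Krt19 and Sox9 were not among those measured. The summed signal of the 4 was 463 and 495 on the 1 week arrays and 164 and 156 on the 1 month arrays, most of it from Onecut1. In bulk RNA, fewer cells of a type and less RNA per cell cannot be told apart.

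Hsd17b2, which oxidises oestradiol and testosterone to weaker steroids, read 2182 and 2313 units at 1 week and 805 and 703 at 1 month, 2.98-fold lower (log2 difference -1.58 ± 0.305, limma adjusted p = 0.305). In control it read 115 and 145 units, and in the other restricted pools 1535 to 2601, so the 1 month pool at 30% stood between control and the other diets. The difference between durations ran from 0.34 in control through 0.17, -0.29 and -0.76 to -1.58 as restriction went up. Abcc2, which exports bilirubin conjugates into bile, read 431 and 424 units against 196 and 213, 2.09-fold lower (log2 difference -1.07 ± 0.171, limma adjusted p = 0.275). It was lower at 1 month in each other diet as well (-0.41 to -0.82), and its departure from them was -0.48 ± 0.191 (limma adjusted p = 0.929). Egfr, the epidermal growth factor receptor gene, differed by -0.95 at 30% and by -0.33 to -0.60 elsewhere. Its 1 month arrays read 236 and 141 units, and without single arrays the value ran from -1.33 to -0.58, which reaches the range of the other diets. A second, dimmer probe set of Egfr differed by -0.19.

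The other bright calls included Depp1, Reep6, Cdh17, Atp1b1, Insig2 and Clpx, which were named after their values were seen. Depp1, a target of FOXO transcription factors, read 289 units at 1 week and 111 at 1 month, and Reep6, a protein of the endoplasmic reticulum membrane, 370 and 182. Clpx, a mitochondrial protease subunit, read 115 and 233 units. Atp1b1, a sodium pump subunit, read 124 and 255 units. Cdh17, a cadherin, read 140 and 315 units, and was also higher at 1 month at 5, 10 and 20% (0.80 to 1.39). Of genes with small p and a narrow spread elsewhere, Pnrc1, a nuclear receptor coregulator, read 56.1 and 83.8 units at 1 week and 137 and 156 at 1 month (log2 difference 1.09 ± 0.197, limma adjusted p = 0.275), while its differences in the other diets lay between -0.11 and 0.22.

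**Figure D3:**
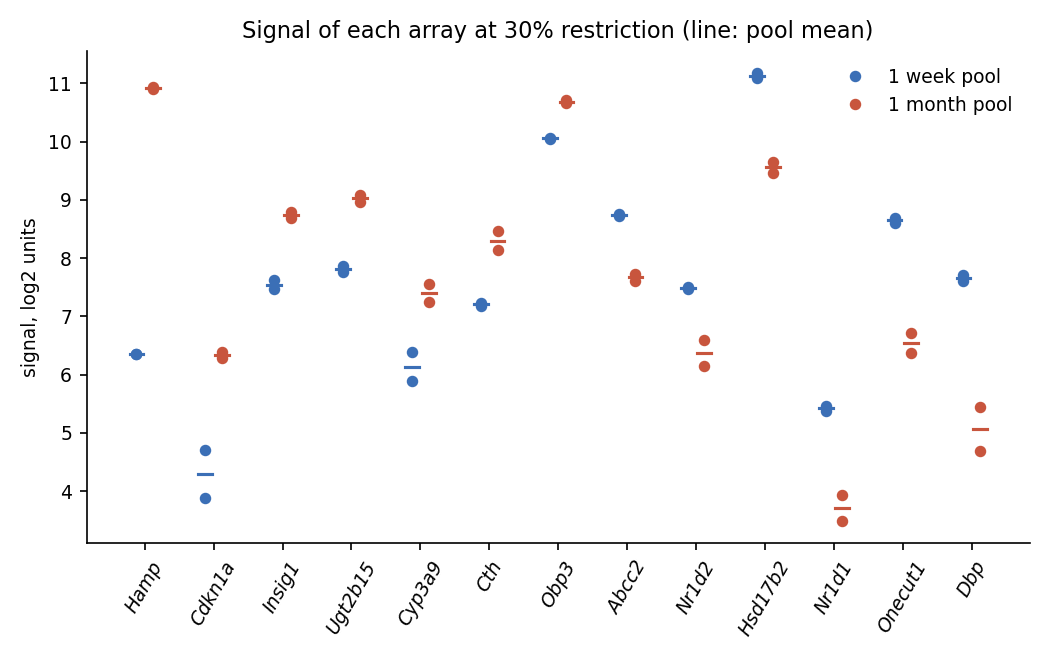
Log2 signal (y axis) of each array of the 1 week pool (blue) and the 1 month pool (red) at 30% restriction for 13 genes, with a line at the pool mean. Arrays of a pool lie close for Hamp, Hsd17b2 and Abcc2 and farther apart for Cdkn1a and Dbp. The pools do not overlap for any gene shown, which the rule of size requires for all of them but Obp3. Of all 7056 genes, 21.2% were higher and 21.3% lower at 1 month without overlap.

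**Figure D4:**
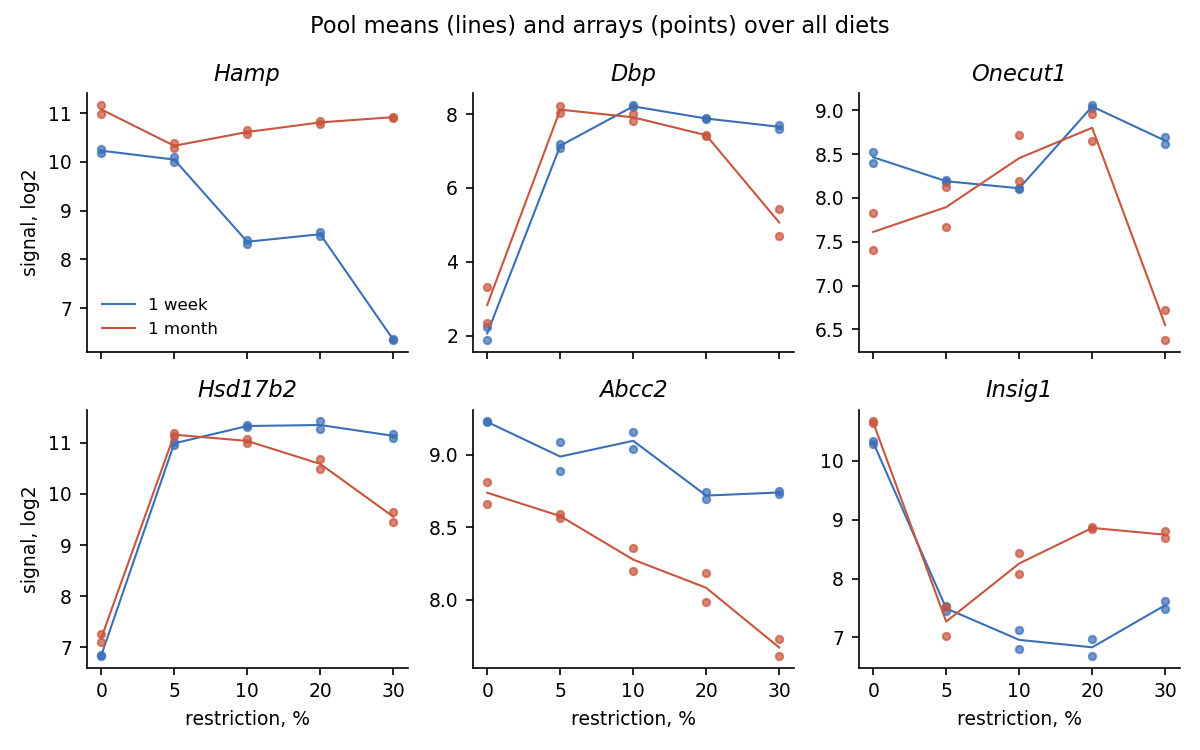
Log2 signal (y axis) against percent restriction (x axis, evenly spaced steps) for 6 genes, with lines through the pool means at 1 week (blue) and 1 month (red) and points for single arrays. Hamp at 1 week goes down to 81.9 units at 30% while the 1 month pools stay between 1289 and 2162, and Hsd17b2 and Abcc2 separate most at 30%.

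Sterol and fatty acid genes did not move as groups. Insig1, which helps to hold the SREBP proteins in the endoplasmic reticulum, read 197 and 178 units at 1 week and 413 and 446 at 1 month. The log2 difference was 1.20 ± 0.59 (limma adjusted p = 0.845), with values of 1.30 at 10% and 2.03 at 20%. Insig2, its relative, read 209 and 426 units. Of 18 measured cholesterol synthesis genes, 2 were higher by the rule of size, Insig1 and the dim Mvd (at least 1.33-fold), beside 1.66% of all genes. The median was 0.10 and ran from -0.09 to 0.15 when arrays were left out in turn, while Msmo1, Fdft1 and Cyp51 differed by -0.51, -0.45 and -0.40. Of 24 genes of fatty acid and triglyceride synthesis, 10 lay above and 14 below 0 (median -0.07), with 1 lower call. That call was Me1, which makes NADPH for lipid synthesis, at 222 and 221 units against 84.8 and 112 (log2 difference -1.19 ± 0.42, limma adjusted p = 0.724), and its second probe set differed by -1.12.

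Fasn, the fatty acid synthase gene, read 40.1 and 57.3 units at 1 week and 74.1 and 74.3 at 1 month, a difference of 0.63 ± 0.617, and its second probe set differed by 0.04. Control pools of Fasn read 1191 and 1024 units, so both 30% pools stayed far below control. Acly, which makes cytosolic acetyl-CoA, differed by 0.10, and Srebf1, the lipogenic transcription factor gene, by -0.17. Pnpla3, a lipid droplet protein gene, was under the lowest mean signal in both pools, so no fold is given. Thrsp, a regulator of lipid synthesis, was lower: its arrays read 1968 and 1921 units at 1 week and 1235 and 1255 at 1 month (log2 difference -0.64 ± 0.113, limma adjusted p = 0.275). The other 8 pools of Thrsp ran from 1750 to 2108 units, and 2 further probe sets differed by -0.63 and -0.68. Pklr, the liver pyruvate kinase gene, read 526 and 300.1 units, and Elovl5, an elongase, 956 and 644.

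Fat oxidation genes were close between the durations. Of 18 mitochondrial fatty acid oxidation genes, 15 lay below 0 and none was called, with a median of -0.09 and a lowest value of -0.37. That value was Cpt1a, the carnitine transferase that admits fatty acids to mitochondria, at 1255 and 1239 units against 934 and 992. A second probe set of Cpt1a differed by -0.64. With the second 1 week array left out, 11 of the 18 lay below the median of all genes. Of 16 peroxisomal oxidation genes, 8 lay on each side of 0. Pdk4, which blocks pyruvate entry into oxidation, read 31.9 and 44.1 units at 1 week and 66.4 and 67.7 at 1 month, a difference of 0.84 ± 0.237 against -0.24 to -0.61 in the other diets (departure 1.29 ± 0.265, limma adjusted p = 0.641). Ppara, the fatty acid receptor gene, was at least 1.89-fold lower, but its differences elsewhere ran from -1.99 to 2.20. Oxidative phosphorylation genes lay mostly above 0, with 55 of 77 there and a median of 0.11, beside 0.13 at 20% and 0.05 in control.

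The Atf4 amino acid response list had the lowest median of the lists with 7 or more measured genes. Atf4 is the transcription factor that answers amino acid shortage, and 20 of its 24 measured list members lay below 0, with a median of -0.44 beside 0.004 for all genes. Of the 24, 2 were lower and 1 was higher by the rule of size, beside 1.30% and 1.66% of all genes. The medians in the other diets were 0.12 in control, 0.27 at 5%, 0.01 at 10% and -0.29 at 20%. Set against the control pool of its duration, the list at 30% had a median of 0.46 at 1 week and -0.21 at 1 month. Atf4 itself read 331 and 335 units at 1 week and 272 and 221 at 1 month, a difference of -0.44. Trib3, a feedback inhibitor of Atf4, read 39.3 and 36.2 units against 22.3 and 22.5. The transfer RNA synthetase genes Aars1, Gars1 and Nars1 differed by -0.62, -0.55 and -0.53, Sars1 by -0.44 and Wars1 by 0.00. Ddit4, an inhibitor of the growth kinase mTORC1, read 40.9 and 20.6 units against 12.8 and 12.2, a difference of -1.21 that ran from -1.71 to -0.72 without single arrays. Psat1, of serine synthesis, read 31.8 and 24.6 units against 12 and 15.2, a difference of -1.05 (-1.23 to -0.86 without single arrays). Psat1 had differences from -2.05 to 0.96 in the other diets. Herpud1, a factor of endoplasmic reticulum protein disposal, read 900 and 556 units. Without single arrays the median ran from -0.46 to -0.30. Asns and Phgdh were under the signal filter.

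Cth, which makes cysteine from cystathionine, went the other way within that list. Its arrays read 150 and 146 units at 1 week and 282 and 354 at 1 month (log2 difference 1.09 ± 0.345, limma adjusted p = 0.627), and control pools read 515 and 577. Cth was also the call among 39 genes of amino acid breakdown, of which 22 lay above 0 and 8 had an unadjusted p under 0.05 on the higher side and 0 on the lower, beside 3.37% and 3.08% of all 7056 genes, with a median of 0.09. Tat, the tyrosine transaminase gene, read 598 and 1073 units, Aass, of lysine breakdown, 323 and 579, and Hal, of histidine breakdown, 208 and 334. Gpt, the alanine transaminase gene, read 484 and 514 units at 1 week and 607 and 722 at 1 month, and Sds, the serine dehydratase gene, 869 and 802 against 986 and 1092. The breakdown list had medians of 0.08 to 0.15 in the other diets, so its level at 30% was close to theirs. All but 1 of 7 urea cycle genes lay above 0 (median 0.17). Pck1, the controlling enzyme gene of glucose production, differed by 0.14 and 13 gluconeogenesis genes had a median of -0.08 and no call, with Foxo1, a transcription factor gene of fasting, at 101 and 58.9 units.

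**Figure D5:**
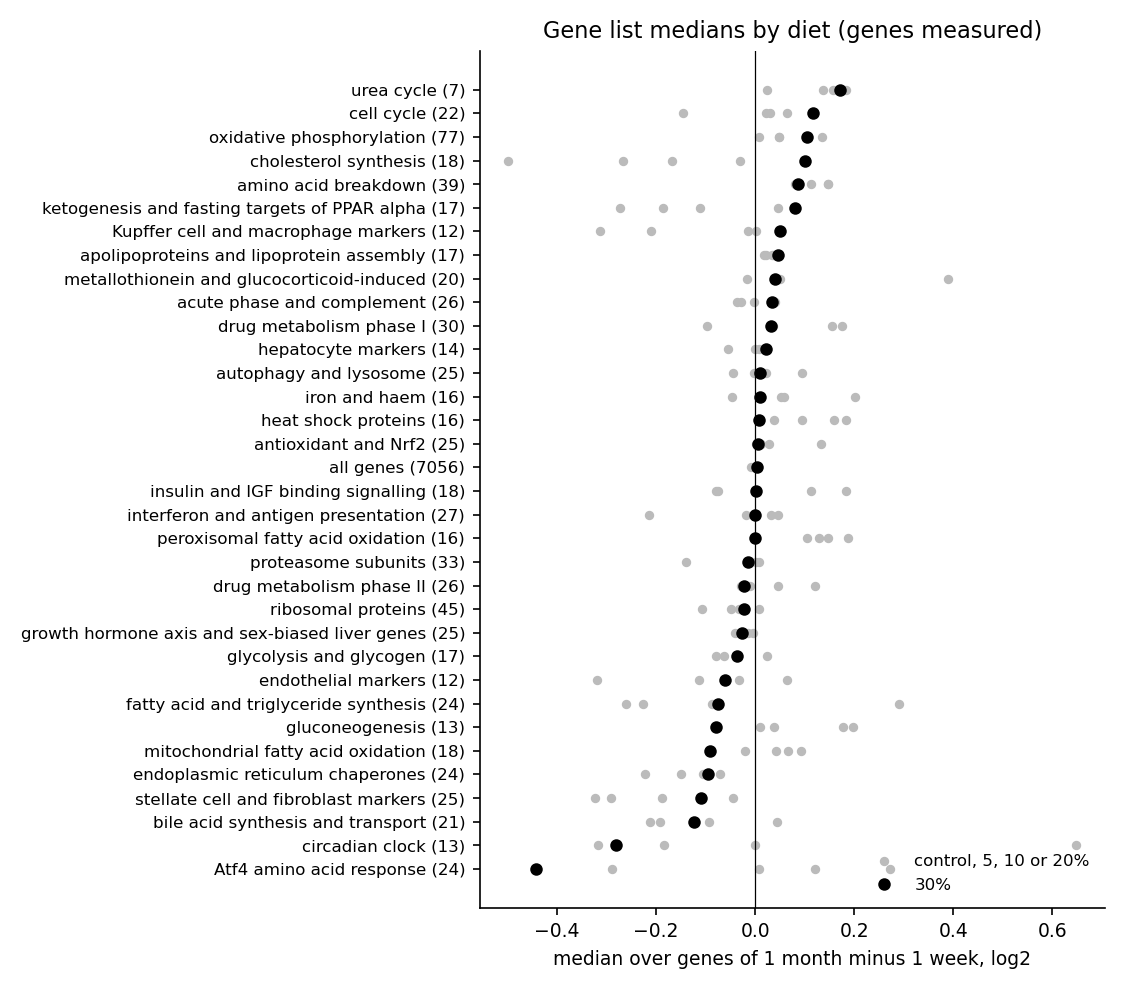
Median over genes of the 1 month minus 1 week difference in log2 signal (x axis) for each gene list with at least 7 measured genes (y axis, number measured in brackets), at 30% restriction (black) and in the other diets (grey). The Atf4 list at -0.44 is the lowest black point and lies left of its 4 grey points, while most lists at 30% lie within 0.2 of 0.

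Hormone related genes gave single calls in both directions. In the insulin list, Irs2, an insulin receptor substrate gene, was at least 1.93-fold higher, but the 1 week arrays read 6.18 and 40.03 units against 41.8 and 41.4 at 1 month, and without the first 1 week array the difference was 0.06. Igfbp2, an IGF binding protein gene, was at least 1.70-fold lower. Igfbp1, a binding protein gene of fasting, read 574 and 584 units against 342 on both arrays at 1 month, a difference of -0.76 that lay among those of the other diets (-0.51 to -1.55). Igf1 differed by -0.10. In the growth hormone list, 2 of 25 genes were higher and 2 lower, beside 1.66% and 1.30% of all genes, with a median of -0.03. Cyp3a9, a cytochrome P450 more abundant in female liver, read 83.4 and 59.2 units against 151 and 188 (log2 difference 1.26 ± 0.273, limma adjusted p = 0.425), and was higher at 1 month in each other diet as well (0.29 to 1.14). Cyp2c12, the female form that pulsed growth hormone suppresses, was lower in most diets and read 33.8 and 27.5 units against 17.8 and 11.7 here, while the male form Cyp2c11 differed by -0.03. Cish, a feedback inhibitor of growth hormone signals, read 14.1 and 14.5 units against 31.9 and 37.0, with differences of -1.68 to 1.10 elsewhere. Obp3, a male urinary protein gene, read 1062 and 1066 units against 1622 and 1670 (log2 difference 0.63 ± 0.131, limma adjusted p = 0.36).

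Drug metabolism genes had a call for Ugt2b15, a glucuronosyltransferase of androgens, besides Cyp3a9. It read 217 and 233 units at 1 week and 500 and 545 at 1 month (log2 difference 1.21 ± 0.411, limma adjusted p = 0.688). At 1 week its pools read 237 units in control, 368 at 5%, 486 at 10%, 484 at 20% and 225 at 30%, so the 30% pool was close to control. Of 30 phase I genes, 16 lay above 0 (median 0.03), and of 26 phase II genes 13 (median -0.02). Por, the electron donor of these P450 enzymes, differed by -0.28 and the acetyltransferase gene Nat8 by -0.61. Cyp7a1, which starts bile acid synthesis, read 239 and 215 units against 178 and 206, and 14 of 21 bile acid genes lay below 0 (median -0.12). The sterol exporter genes Abcg5 and Abcg8 differed by -0.73 and -0.67, and Nr0b2, which represses Cyp7a1, by -0.66. Mt2A, a metallothionein gene, read 1586 and 1415 units against 992 and 943, a difference of -0.63 ± 0.65, and Hspa5, the main chaperone gene of the endoplasmic reticulum, differed by 0.03.

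In the cell cycle list 3 of 22 measured genes were higher by the rule of size and none lower, beside 1.66% and 1.30% of all genes, and with low values raised 1 was counted. Cdkn1a, the p21 inhibitor of cell division, read 26.1 and 14.8 units at 1 week and 78.3 and 83.7 at 1 month, 4.12-fold higher (log2 difference 2.04 ± 0.867, limma adjusted p = 0.765). Its differences were 1.18 at 5%, 3.39 at 10% and 2.52 at 20%, and its departure from the mean of the other diets was 0.24 ± 0.97. Cdkn1b, a related inhibitor, read 83.0 and 145 units. Ccnb1 and Plk1, which drive mitosis, were dim and at least 1.17-fold and 1.92-fold higher, and Ccnd1, a cyclin of the first growth phase, differed by 0.07.

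Among the largest differences, most genes other than Hamp, Dbp and Onecut1 were dim. On the higher side Fam171a1 was at least 1.86-fold higher, Art1 3.04-fold, Impact 2.74-fold and Kcnab1 2.42-fold at least, and Ddr1, Mapt, Sap30, Ino80e and Nbeal2 at least 1.35 to 1.92-fold. A second probe set of Impact, a regulator of the Gcn2 amino acid sensor, differed by 0.32. Klrg1 and Foxk2 had small p values, but their 1 week arrays disagreed, at 15.3 and 1.66 units and at 2.59 and 28.0 units, and those of Foxk2 overlapped the 1 month arrays. Without the first 1 week array the Klrg1 difference was 3.78, and without the second it was 0.57. On the lower side, Josd2 was at least 2.50-fold lower, Klf16 3.11-fold, Mms19 2.37-fold, Tbx19 2.47-fold and Ube3b 2.26-fold at least, and Lcnl, Ptgs2os, Cybrd1, Ighl2 and Uqcc3 were at least 1.21 to 2.20-fold lower. For Vps72 the 1 month arrays read 6.93 and 42.9 units and overlapped those of 1 week, at 58.3 and 32.5.

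Markers of the cell types in liver were measured in the same arrays. The summed signal of 14 hepatocyte markers was 58630 and 58906 at 1 week and 59256 and 60075 at 1 month. Albumin read the same on all 4 arrays, at the top of the range that quantile normalization makes equal, so its difference here is fixed at 0. The sum is weighted to the brightest genes, whose values the same scaling holds close, so it cannot show whether hepatocyte content differed. For 25 stellate cell and fibroblast markers the summed signal was 1464 and 1416 against 1118 and 1154. In that list 16 genes lay below 0 and 9 above, with a median of -0.11 that ran from -0.28 to -0.10 when arrays were left out in turn. The medians in the other diets were -0.05 in control, -0.29 at 5%, -0.19 at 10% and -0.32 at 20%. Values at the lower end at 30% were those of Col1a2, Sparc, Col5a2 and Col3a1 at -0.997, -0.75, -0.71 and -0.67, and the dim Pdgfrb and Timp1 were at least 1.08-fold and 1.93-fold higher. Col3a1 was lower at 1 month in each other diet too (-0.51 to -0.84). For 12 endothelial markers the sums were 693 and 747 against 634 and 718, and for 12 Kupffer cell and macrophage markers 1146 and 1231 against 1312 and 1215, so the pools overlapped in both. The 3 lymphocyte markers measured summed to 66.5 and 66.6 against 80.2 and 68.7, and the 3 red cell markers to 1314 and 1387 against 1240 and 1213, with Hbb at a difference of -0.15. The part of cell makeup in the gene differences was not tested. Interferon and antigen presentation genes gave 1 higher and 1 lower call among 27, beside 1.66% and 1.30% of all genes, RT1-A3 (at least 1.86-fold) and Mx2 (at least 1.35-fold), with a median of 0.00. With low values raised, none of the 27 was called.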

How the data were processed

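Male rat liver RNA was measured in 10 pools of 5 rats, 2 arrays each. The deposited intensity values, 1 linear signal per probe set, came from MAS5, per the submitters' processing notes. Version and scaling were not given in the sources read, and detection calls were not used. Here 32 values of 0 were set to the array minimum, 57 control probe sets were left out, signals were turned to log2 and quantile normalized over 20 arrays, and the arrays of a pool were averaged. Of 15866 probe sets, the upper 60% by mean signal were tested. Names came from the platform annotation (8120 tested probe sets with 1 gene, 245 with several, 1155 unlisted), and a gene was read from its brightest probe set. Calls by size needed a log2 difference of 1 and arrays that did not overlap. limma 3.58.1 in R 4.3.3 (two-sided, trend on signal, Benjamini-Hochberg adjustment, threshold 0.05) fitted diet level, duration and a term for the 1 month pool at 30%, with 3 residual degrees of freedom. The script was tested on simulated data.

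Genes named were the 12 largest calls in each direction, the 5 of smallest p in each direction for either limma contrast, up to 4 calls per list of 36 lists, and a set of 35 genes, of which 5 lay under the filter. Other list members were named after their values were seen. Members and lists were chosen with earlier results of these data known. Array numbers did not pair the pools (correlation of deviations -0.0473 to 0.121, and 0.0694 between the 30% pools). Alternatives covered scaling, filter, fold, left-out arrays and diets, covariates and the array number as a block.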

Additional observations from a re-analysis of the deposited data

How the results depend on the processing

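The 298 calls by size became 1721 with no filter on low signal, 56 with the upper 40% of probe sets, 131 with low values raised, 976 at 1.5-fold, 94 at 3-fold and 411 to 630 without single arrays. They were 330 with signals as deposited (302 higher and 28 lower, all probe sets shifting by 0.27), 262 with median centring (154 and 108) and 380 with no condition on arrays. limma's 0 calls became 16 as deposited, 1 with median centring, 1 without the 5% pools, 2 with percent restriction as a number, and 0 to 1 without single arrays. With array number as a replicate block the count was 36, and 19 for the departure, and the size rule on paired arrays gave 100. This block treats arrays of a pool as repeats (correlation 0.160), so it counts array spread. For the departure, 5 passed as deposited and 0 to 1 without single arrays. The other alternatives gave 0, with 325 to 926 probe sets at an unadjusted p under 0.05 for the difference and 283 to 813 for the departure. The cause of these moves was not tested, apart from the filter, fold and array rules, which change what is counted. Hamp kept its sign in 18 of 18 alternatives (4.21 to 4.90), and Dbp in 18 of 18 (-2.97 to -2.20). Changes of filter, low values, variance trend, block or left-out diets left both differences unchanged, so the sign was fixed there. Hamp passed in 5: signals as deposited, median centring, percent restriction as a number, without the 5% pools, and the block. Dbp passed in 2, signals as deposited and the block, which counts array spread. Dim signal limits most calls, and pool-to-pool error could be had only from other diets.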
